A study of Caenorhabditis nigoni and Caenorhabditis briggsae with 14 samples.

Results

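The genes described here are 173 of the 23439 genes in the deposited gene tables: those that did not differ strongly between the sexes in either parental species and stood higher in sterile hybrid males than in the fertile males of both parents. They were chosen on their levels in CPM, a gene's count scaled to 1000000 counts of its library's raw gene total. Each of the 6 sterile libraries had to exceed 1.5 times the highest of the 6 parental male libraries, the mean of the 6 sterile libraries had to reach 10 CPM, and each parental male mean 1 CPM. The male-to-female ratio, called the sex ratio below and computed as (male mean + 1)/(female CPM + 1), had to lie between 1/4 and 4 in both parents. These conditions other than the rise were met by 6861 genes. Because the comparison of sterile with parental males chose the genes, their rise is a description and is not tested. The files give WormBase identifiers without names, products or positions, so no member is given a function or a place on the X chromosome, and tissue markers could not be checked.

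The study sequenced mRNA of whole young adult worms to compare sterile hybrid males with fertile parental males, in 4 strains with 3 male libraries each and 300 animals per library. ZZY10330 and ZZY10307 are sterile strains of mostly C. nigoni genome in which a stretch of X is of C. briggsae origin: from 16.4 Mb to the end in ZZY10330, and between 4.5 and 12.2 Mb in ZZY10307. The parents are the fertile wild-type strains AF16 of C. briggsae and JU1421 of C. nigoni, each with 1 library of animals labelled young adult female. C. briggsae animals with 2 X chromosomes are ordinarily self-fertile hermaphrodites. Males of both sterile strains had JU1421 fathers and introgression-carrying mothers, and were picked by a cbr-myo-2::GFP marker, a fluorescent reporter on a pharyngeal muscle myosin promoter. No such marker is given for the parents, so effects of the introgression, of the cross and of the marker cannot be told apart. Each introgression is represented by a single strain, and nothing in the labels says whether replicates came from separate cultures.

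Sterility of the hybrid sex with a single X chromosome is a common outcome of crosses between species, known as Haldane's rule, and in Caenorhabditis that sex is the male. In adult worms a large part of the sex difference in RNA comes from the germline, which makes sperm in males and oocytes in females. Genes at similar levels in both sexes include those of body tissues and of functions that both germlines need. In a hybrid, a gene's level can lie between those of its parents or outside their range. In whole-worm RNA, more cells of a type and more RNA per cell cannot be told apart.

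Library totals ranged from 2372653 to 3785106 gene counts, so that 3 counts in a library stand for 0.793 to 1.26 CPM. The 1391 genes with a sex ratio of 4 or more in both parents took 14.2 to 18.4% of counts in ZZY10330 males and 9.87 to 11.2% in ZZY10307 males, against 28.5 to 29.4% in AF16 males and 29.7 to 33.0% in JU1421 males. This share was lower in sterile than in parental males, where the 173 genes were higher. Between the sterile strains, both this share and that of the 173 genes were on average higher in ZZY10330. Its part in their levels on the CPM scale was not tested. The other 6688 genes meeting the conditions also stood higher in the sterile libraries on that scale, with a median of 1.32-fold over the parental males against 3.81-fold for the 173. With TMM factors, which scale libraries on the genes that differ least, these medians were 1.01-fold for the other genes and 2.96-fold for the 173.

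The number of raised genes depended on this scaling. On raw totals the rule gave 173 raised genes, and its mirror image, with every parental library above 1.5 times the highest sterile one and a parental mean of at least 10 CPM, gave 5 lowered genes. With TMM-scaled CPM 68 genes were raised, 65 of them among the 173, and 31 were lowered. With CPM counted over genes outside the strongly male-biased class, a scaling added after seeing the data, 75 were raised, 70 of them among the 173, and 15 were lowered. The ratio of the lowest sterile to the highest parental library had a median of 1.84 on raw totals, with 6.25 as the highest, and a median of 1.41 with TMM, with a range of 1.04 to 5.48.

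**Figure D1:**
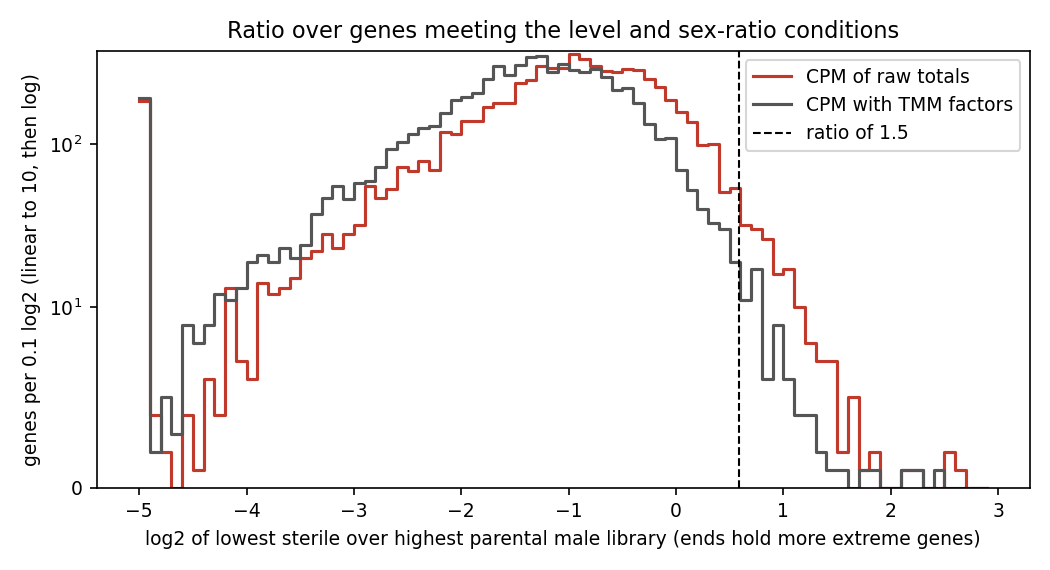
Number of genes, in steps of 0.1 on the log2 scale, by the ratio of the lowest sterile to the highest parental male library over the 6861 genes meeting the level and sex-ratio conditions, on raw totals and with TMM factors; the vertical axis is linear to 10 genes and logarithmic above. At its upper end the raw-total curve lies to the right of the TMM curve, and the dashed line at 1.5 cuts off the 173 genes on its upper tail.

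The threshold falls within a continuous slope of values. The members just inside it were WBGene00030555 and WBGene00038398, with ratios of 1.503 and 1.504, and the genes just outside were WBGene00038503 and WBGene00040581, with ratios of 1.499 and 1.497. The ratio was under 2 in 109 members, at least 2 in 64 and at least 3 in 13.

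Together the 173 genes took a few percent of the transcriptome in sterile males and about 1% in the fertile parents. Their share of gene counts was 3.34, 4.31 and 3.43% in the ZZY10330 libraries and 2.94, 3.51 and 3.20% in the ZZY10307 libraries. In parental males it was 1.02, 1.02 and 1.13% in AF16 and 0.923, 0.923 and 0.925% in JU1421. The sterile libraries were thus all above the parental ones, as the rule requires, with ZZY10330 replicate 2 the highest. The female libraries, at 0.965% in AF16 (exact 95% binomial interval 0.954 to 0.976%) and 1.07% in JU1421 (1.06 to 1.08%), were near the parental males. These intervals cover counting error only. The median member stood at 82.2 to 120.2 CPM in the ZZY10330 libraries, 91.2 to 96.3 CPM in ZZY10307, 24.7 to 26.4 CPM in AF16 males and 21.9 to 24.3 CPM in JU1421 males, and at 23.0 CPM in the AF16 and 23.1 CPM in the JU1421 female library.

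**Figure D2:**
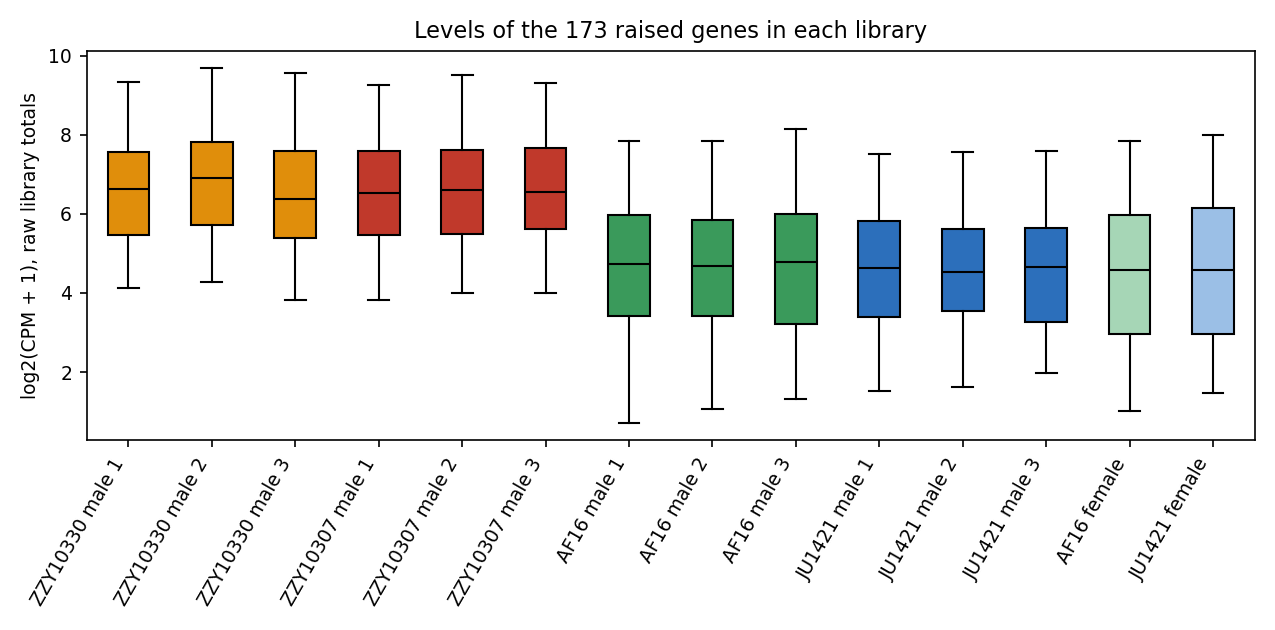
Levels of the 173 genes in each library as log2(CPM + 1) on raw totals; boxes span the quartiles with the median as a line, and whiskers run from the 5th to the 95th percentile of genes. The 6 sterile medians, at 82.2 to 120.2 CPM, sit above those of the parental males and of the female libraries, at 21.9 to 26.4 CPM, while the boxes overlap in part.

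The members covered a wide range of abundance. Their mean over the 6 sterile libraries was 10 to 50 CPM in 43 genes, 50 to 200 CPM in 88, 200 to 1000 CPM in 37 and at least 1000 CPM in 5. Of the other 6688 genes, 56.1% lay in the lowest of these classes, against 24.9% of the members. Since the rule requires high sterile levels of the members, this difference is partly set by the choice. In the 6 parental male libraries, which the rule holds below the sterile ones, the order was the reverse. The median of their mean was 24.3 CPM for the members and 31.7 CPM for the other genes. The sterile mean was a median of 4.17-fold that of JU1421 males (range 1.97 to 23.9) and 3.67-fold that of AF16 males (range 1.93 to 83.3). It was at least 4-fold over both parents in 58 genes and at least 10-fold over both in 6. Low parental levels limit these folds: 29 members averaged under 5 CPM in the parental males, and 19 had no count in at least 1 parental library.

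In the edgeR fit with TMM factors, the median log2 fold change against JU1421 was 1.86 in ZZY10330 and 1.58 in ZZY10307, where all genes tested had medians of -0.03 and 0.09. Against AF16 the medians were 1.78 in ZZY10330 and 1.37 in ZZY10307, where all genes had 0.07 and 0.13. The rule used these comparisons and fixes their sign for the members, whose smallest fitted value was 0.48, for ZZY10307 against AF16. The same sterile libraries enter the comparisons with each parent, and the same parental libraries those of each strain.

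The most abundant member was WBGene00032442. It had 2120.5, 3709 and 3116 CPM in ZZY10330 and 2205, 2838 and 2482 CPM in ZZY10307, against 802, 781 and 1199.7 CPM in AF16 males and 1387, 1395 and 1119 CPM in JU1421 males. It passed the threshold narrowly, at a ratio of 1.52, and stood at 421 CPM in the AF16 and 908 CPM in the JU1421 female library. Next came WBGene00041087, at 1579.6, 2036 and 1922 CPM in ZZY10330 and 955, 1173 and 968 CPM in ZZY10307, against 412, 496 and 431 CPM in AF16 males and 298, 411 and 240.03 CPM in JU1421 males. Its female libraries, at 439 CPM in AF16 and 423 CPM in JU1421, lay close to the males of the same strain, and the libraries of the sterile strains did not overlap.

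Members with the widest gap to the parents were near the detection limit in fertile males. WBGene00088665 had 30.2, 51.0 and 22.3 CPM in ZZY10330 and 131, 44.5 and 108 CPM in ZZY10307, against 3.57, 2.17 and 2.64 CPM in AF16 males and 2.64, 2.74 and 2.90 CPM in JU1421 males. Its lowest sterile library was 6.25 times its highest parental one, and its sterile mean was 23.1-fold that of AF16 and 23.3-fold that of JU1421. WBGene00041219 had 34.6, 28.8 and 41.7 CPM in ZZY10330 and 41.1, 86.5 and 39.3 CPM in ZZY10307, against 2.60, 4.88 and 3.39 CPM in AF16 males and 0, 2.06 and 3.63 CPM in JU1421 males. One ZZY10307 library stood apart at 86.5 CPM, and the other sterile libraries lay between 28.8 and 41.7 CPM. The female libraries were as low as the parental males, at 4.11 CPM in AF16 and 2.34 CPM in JU1421.

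**Figure D3:**
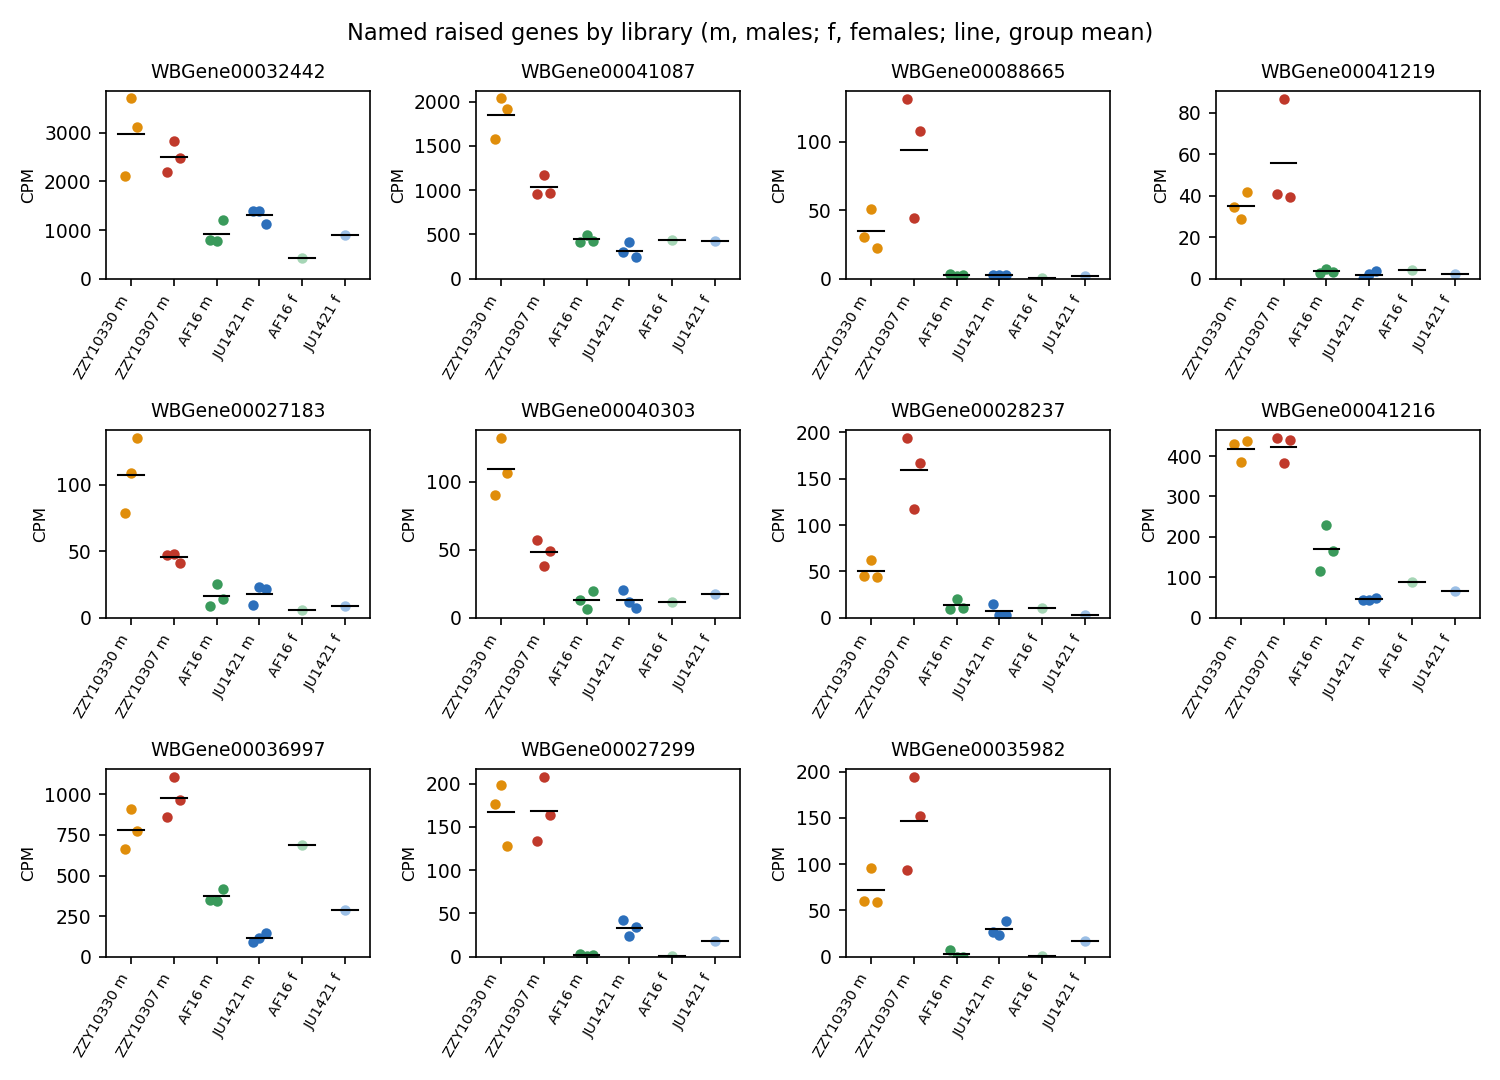
CPM on raw totals of 11 named members in each library, with a line at the group mean and a linear axis from 0. For WBGene00088665 and WBGene00041219 every parental and female library lies under 5 CPM, while the sterile libraries lie between 22.3 and 131 CPM.

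Within the allowed window the sex ratios of the members were spread around 1. The median was 1.13 in AF16 and 1.03 in JU1421, against 0.922 and 0.846 for the other 6688 genes. The ratio was above 1 in both parents for 73 members, below 1 in both for 51 and on different sides of 1 for 49. In this order of classes the median fold over JU1421 was 4.21, 3.65 and 4.23, and that over AF16 was 3.72, 3.76 and 3.19. A narrower window of 1/2 to 2 in both parents held 60.1% of the members and 52.4% of the other genes. The lowest sterile library exceeded both female libraries in 159 of the 173 genes (91.9%), against 24.4% of the other 6688 genes. The rule bounds the female level through the sex ratio. It also puts the lowest sterile library of a member above 1.5 times the highest parental male one, a condition the other genes failed. This count and its contrast with the other genes are thus set in large part by the choice. Each female value rests on 1 library, with RNA amount and read length given for the males only.

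Replicates of the sterile strains did not contribute evenly. ZZY10330 replicate 2 was the highest of its strain in 120 of 173 members on raw totals and in 97 with TMM. Of the 14 libraries it had the largest total, 3785106 gene counts, and the fewest genes with a count, 12516. It also had the lowest share of strongly male-biased genes in its strain, at 14.2%, where replicates 1 and 3 had 18.2 and 18.4%. In ZZY10307 replicate 2 was the highest in 82 members on raw totals and in 76 with TMM, and had a male-biased share of 9.87% where replicates 1 and 3 had 11.2 and 10.6%. Among the other 6688 genes ZZY10330 replicate 2 was the highest in 42.3% and ZZY10307 replicate 2 in 37.6%, on raw totals. The part of these libraries in the levels was not tested. The coefficient of variation between replicates had a median over members of 19.5% in ZZY10330, 15.3% in ZZY10307, 22.6% in AF16 males and 24.3% in JU1421 males, where the other 6688 genes had 28.8%, 19.0%, 23.3% and 24.1% in the same groups. Requiring every sterile library to be high favours genes with a small spread between sterile replicates, so the sterile values are partly set by the choice.

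The sterile strains were then compared with each other, to ask whether the level differed with the X segment. The rule does not compare them, but it requires each of these 6 libraries to be high on raw totals. Since the strains differ in replicate spread and in TMM factors, the choice can shape this contrast too. Its part in the values below was not tested. Most members did not differ detectably: 13 of 173 were higher in ZZY10330 and 2 lower (edgeR quasi-likelihood test, Benjamini-Hochberg adjusted p below 0.05 over 13289 genes). These are 7.51% and 1.16% of the members, against 5.07% higher and 3.44% lower among all genes tested, and 4.4% higher and 4.69% lower among the other genes meeting the conditions. In either direction 8.67% of members were called, 8.51% of all genes and 9.09% of those other genes, so the share called was near the background. The members' median log2 fold change was 0.29, with 132 of 173 above 0, where all genes had a median of 0.02 and the other genes meeting the conditions -0.03. On raw totals these medians were 0.14 for the members and -0.13 for all genes, with 11 members higher and 5 lower, and 502 and 744 of all genes, where TMM gave 674 and 457. By mean CPM on raw totals, ZZY10330 was above ZZY10307 in 65.3% of members and in 39.2% of the other genes meeting the conditions. The share of strongly male-biased genes was also higher in ZZY10330, 16.9 ± 2.39% against 10.6 ± 0.677% in ZZY10307 (SD, n = 3 each).

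The 13 higher members had sterile means of 76.3 to 1439 CPM. Of the 5 members of at least 1000 CPM, 4 were higher in ZZY10330, as were 4 of the 37 between 200 and 1000 CPM and 5 of the 88 between 50 and 200 CPM. Of the other genes meeting the conditions, 16.9%, 13.1% and 5.88% were higher in these classes, in the same order, against 10.8% and 5.68% of the members in the lower 2 of them. The highest class holds too few members to read a share from. The 13 higher members differed by 0.82 to 1.41 on the log2 scale. WBGene00041087, one of the 5, differed by 0.999 on that scale (SE 0.214, adjusted p = 0.00489), with means of 1846 ± 237 CPM in ZZY10330 and 1032 ± 122 CPM in ZZY10307 (SD, n = 3 each), and passed under all alternatives tried, with adjusted p of 2.8e-05 to 0.0425 by edgeR or DESeq2. A difference of the same size in a rare member may not be detectable at this depth.

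The called members with the largest differences between the sterile strains were 2 in each direction. WBGene00027183 had 78.7, 109 and 135 CPM in ZZY10330 and 47.0, 47.8 and 41.0 CPM in ZZY10307 (log2 1.41, SE 0.38, edgeR adjusted p = 0.0232). WBGene00040303 had 90.01, 132 and 106 CPM in ZZY10330 and 57.4, 38.0 and 49.4 CPM in ZZY10307 (log2 1.33, SE 0.37, edgeR adjusted p = 0.0295). The strains did not overlap in either gene, and parental males of both lay at 6.51 to 25.2 CPM. In the other direction, WBGene00028237 had 44.7, 62.6 and 43.8 CPM in ZZY10330 and 194, 117 and 167 CPM in ZZY10307 (log2 -1.51, SE 0.42, edgeR adjusted p = 0.0320), again without overlap. WBGene00088665, described above, was lower in ZZY10330 (log2 -1.31, SE 0.40, edgeR adjusted p = 0.0444), although ZZY10307 replicate 2, at 44.5 CPM, lay below the highest ZZY10330 library. Each of these 4 calls was lost when 1 of several sterile libraries was left out. For WBGene00027183 these were every ZZY10307 library or ZZY10330 replicate 3, and for WBGene00040303 ZZY10307 replicate 2 or 3 or ZZY10330 replicate 2 or 3. For WBGene00028237 and WBGene00088665 they were replicates 1 and 3 of both strains. WBGene00088665 was also lost with a replicate block (edgeR adjusted p = 0.0876) and with the 6 libraries of these strains alone (edgeR adjusted p = 0.0751). Without JU1421 replicate 2 it passed only barely, at an edgeR adjusted p that rounds to 0.05. Its adjusted p ranged from 0.0145 to 0.278 among the alternatives, by edgeR or DESeq2.

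The count of members higher in ZZY10330 was 24 by DESeq2, which is 13.9% of them against 7.76% of all genes. It was 8 without ZZY10307 replicate 1 (4.62% against 3.7% of all genes) and 7 without ZZY10307 replicate 3 (4.05% against 2.63%). Among the 68 genes raised with TMM-scaled CPM, 2 were higher (2.94%) and 2 lower, against 5.07% higher and 3.44% lower among all genes. These calls are too few to tell whether the excess of higher over lower calls held in that list. Its median log2 fold change was 0.21, where all genes tested had 0.02. Neither lower member passed without ZZY10330 replicate 3 (edgeR adjusted p = 0.0893 for WBGene00028237 and 0.132 for WBGene00088665) or without ZZY10307 replicate 3 (0.101 and 0.168).

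**Figure D4:**
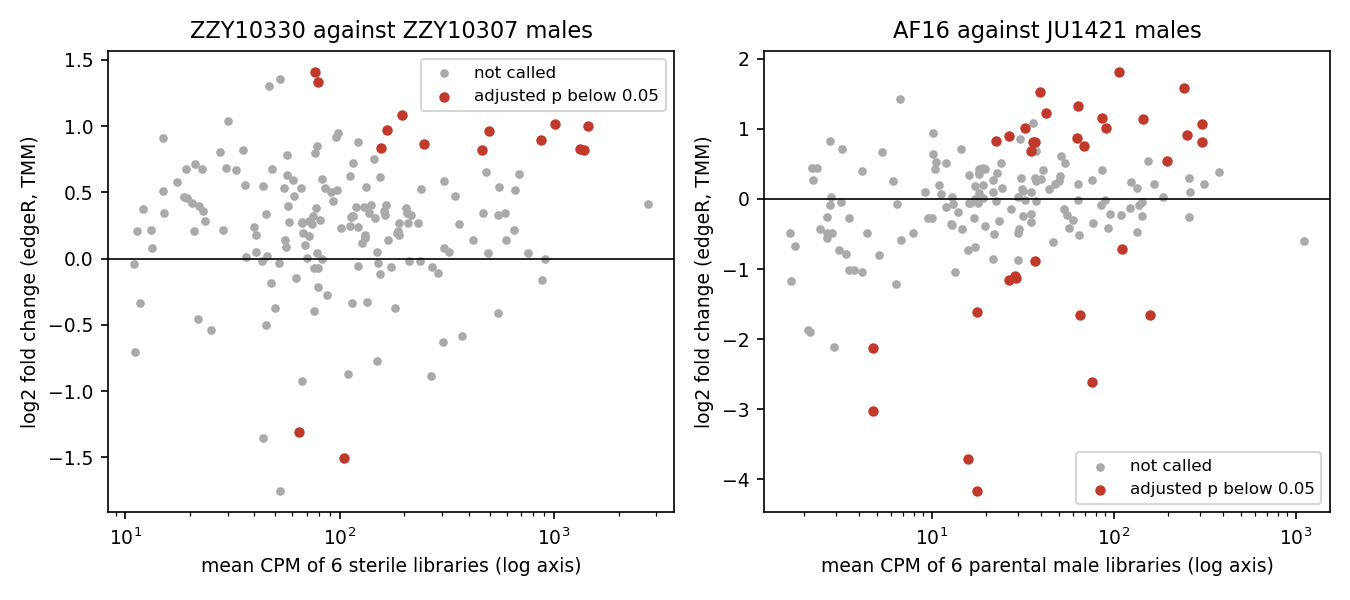
Fitted log2 fold change of each of the 173 genes against its mean CPM, for ZZY10330 against ZZY10307 males (left, level over 6 sterile libraries) and AF16 against JU1421 males (right, level over 6 parental libraries). Red points have an adjusted p below 0.05 by edgeR: 13 higher and 2 lower on the left, 20 higher and 13 lower on the right.

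The fertile parents were compared in the same fit, to see whether the species themselves differed at these genes. In AF16, 20 of 173 members were higher than in JU1421 and 13 were lower. These are 11.6% and 7.51% of the members, against 9.23% higher and 11.2% lower among all genes tested, and 9.57% higher and 10.6% lower among the other genes meeting the conditions. In either direction 19.1% of members, 20.5% of all genes and 20.2% of those other genes were called, so here too the share was near the background. The median log2 fold change was -0.01 with TMM factors and 0.09 on raw totals, where all genes had -0.02 and 0.07, so the list had no direction of its own that held under both scalings.

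The called members with the largest species differences ran both ways. WBGene00041216 had 429, 385 and 437 CPM in ZZY10330 and 446, 384 and 441 CPM in ZZY10307, against 116, 229 and 164 CPM in AF16 males and 43.4, 43.5 and 48.6 CPM in JU1421 males. AF16 was higher than JU1421 by 1.81 on the log2 scale (SE 0.23, edgeR adjusted p = 5.8e-06), and the parents did not overlap. WBGene00036997 had 661, 909 and 777 CPM in ZZY10330 and 861, 1108 and 963 CPM in ZZY10307, against 349.6, 343 and 419 CPM in AF16 males and 88.3, 114 and 144 CPM in JU1421 males. The parents again did not overlap (log2 1.58, SE 0.21, edgeR adjusted p = 8.27e-06). Its AF16 female library, at 686 CPM, lay above the lowest sterile library, and its JU1421 female library stood at 289 CPM.

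WBGene00027299 had 177, 198 and 128 CPM in ZZY10330 and 134, 207 and 164 CPM in ZZY10307, against 3.25, 0.543 and 2.26 CPM in AF16 males and 41.9, 24.0 and 34.8 CPM in JU1421 males. It was nearly undetected in AF16 and lower there than in JU1421 by the test (log2 -4.17, SE 0.39, edgeR adjusted p = 1.04e-07). WBGene00035982 had 60.1, 96.4 and 59.0 CPM in ZZY10330 and 93.3, 194 and 152 CPM in ZZY10307, against 7.15, 0 and 0 CPM in AF16 males and 27.2, 23.3 and 38.1 CPM in JU1421 males (log2 -3.71, SE 0.80, edgeR adjusted p = 0.00487). Its AF16 level rests on replicate 1 alone, and without that library the fitted value is -9.66. The sterile mean of WBGene00027299 was 83.3-fold that of AF16 and 5.01-fold that of JU1421, and that of WBGene00035982 was 45.8-fold and 3.70-fold. Unequal assignment of reads from the species to 1 gene list and a difference in expression cannot be told apart in this contrast.

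Grouping by the species call fixes which parent lies closer to the sterile males, so the folds that follow are a description. The 20 members higher in AF16 stood at a median of 6.44-fold over JU1421 and 2.65-fold over AF16, and the 13 lower in AF16 at 4.17-fold over JU1421 and 12.02-fold over AF16. The 140 members without a species call stood at 3.83-fold over JU1421 and 3.60-fold over AF16.

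**Figure D5:**
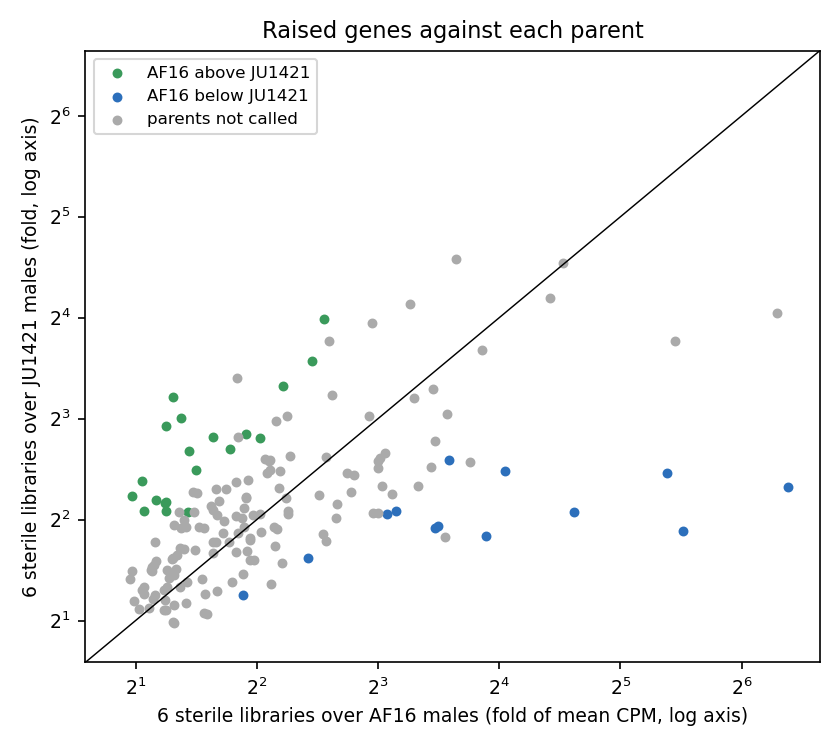
Mean CPM of the 6 sterile libraries over that of AF16 males (horizontal) and over that of JU1421 males (vertical) for each of the 173 genes, on log axes, with the line of equal folds. Colours mark the AF16 against JU1421 call, which sets the side of the line; folds reach 83.3 over AF16 and 23.9 over JU1421.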

How the data were processed

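Raw counts per gene are what the authors deposited, for 14 libraries made with a stranded TruSeq mRNA kit (for the males from 300 ng of total RNA, read in pairs of 150 nt), per the labels. Trimmomatic and edgeR appear in the submitters' processing notes, without versions. No source used here names the aligner, counter, genome build, annotation or strand setting, so near-identical or antisense genes may share reads. The 12 tables of repeat families were not used.

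CPM and the 173 members follow the rule in the text. Genes passing filterByExpr with a minimum count of 10 (13289, all 173 members among them) were fitted over the 12 male libraries with TMM factors and robust quasi-likelihood in edgeR 4.0.16 under R 4.3.3, with 1 coefficient per strain, at a Benjamini-Hochberg adjusted p below 0.05. SEs are the fold change divided by the root of F. DESeq2 1.42.0, other scalings, no filter, the compared libraries alone, a replicate block and leaving out each library were alternatives. The edgeR fit, but not the rule that chose the members, was tried on simulated counts with known fold changes. Replicates differed beyond sampling noise, with chi-square values of 7.01 to 25.6 per degree of freedom.

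The members and lists were chosen with earlier results of these data known. Lists and markers by gene name were not run, since the files hold identifiers alone. Named, at most 2 for each, are the most abundant members, those with the largest ratio, genes just inside and outside the threshold, and those with the largest called change each way. p-values measure the spread between these libraries, which may be technical.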

Additional observations from a re-analysis of the deposited data

Results flagged for a closer look

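The effect against the shared JU1421 males differed between the sterile strains in some named members, by the direct test of ZZY10330 against ZZY10307 (edgeR). One of them, WBGene00041087, described above, passed under all alternatives tried. The 4 flagged here had the largest called differences, and each call was lost when 1 of several sterile libraries was left out. On the log2 scale the effect was larger in ZZY10330 by 1.41 for WBGene00027183 and by 1.33 for WBGene00040303. It was smaller in ZZY10330 for WBGene00028237 and WBGene00088665, with differences of -1.51 and -1.31. These 4 genes were above the males of both parents in each sterile library, as the rule requires of every member.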

How the results depend on the processing

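As a percent of the 173, the rule gave 39.3% with TMM-scaled library sizes, 37.0% at a ratio of 2, 60.1% with sex ratios within 1/2 to 2, 43.4% with totals outside strongly male-biased genes (added after seeing the data), and 110.4 to 133.5% when 1 library was left out. Members higher in ZZY10330 than in ZZY10307 numbered 24 by DESeq2 and 2 of the 68 chosen with TMM-scaled CPM. With a library left out they numbered 7 to 14. Of all genes 7.76%, 5.07% and 2.63 to 5.44% were higher, in the same order. Members lower in ZZY10330 numbered 5 on raw totals, 5 without the filter and 1 with the replicate block. With a library left out they numbered 0 to 3. Of all genes 5.6%, 3.59%, 2.62% and 1.53 to 3.98% were lower, in the same order. In the TMM-chosen list of 68 genes, AF16 against JU1421 had 9 higher and 8 lower, where 9.23% and 11.2% of all genes were called. With a library left out, 14 to 24 of the 173 members were higher and 11 to 16 lower. All genes then gave 850 to 1497 higher and 1154 to 1814 lower, of 13861 to 14018 tested. Median log2 fold changes against JU1421 were 2.09 in ZZY10330 and 1.96 in ZZY10307 on raw totals, and 2.29 and 1.94 in the TMM-chosen list. Against AF16 the TMM-chosen list had 2.33 in ZZY10330 and 2.12 in ZZY10307, and raw totals gave 1.67 in ZZY10307. AF16 against JU1421 was 0.0892 on raw totals. Deviations of same-numbered libraries from their strain means correlated at -0.00202 to 0.0195 between the sterile strains and -0.00608 to 0.0308 between the parents. Different-numbered libraries gave -0.0281 to 0.0141 and -0.0429 to 0.0268, in the same order. With 3 libraries in each strain, these values cannot decide whether the numbers pair libraries. The cause of these shifts was not tested.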
